A study of Homo sapiens with 24 samples.

Results

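The 40 mRNAs described here encode splicing factors and the kinases that control them, and they were followed in HepG2, a cell line of human hepatic tumour origin. They are the SR proteins SRSF1 to SRSF11 with TRA2A and TRA2B (13 genes), the kinases CLK1 to CLK4 (4 genes), 18 hnRNP genes named HNRNP, and 5 further regulators, PTBP1, PTBP2, PTBP3, SYNCRIP and RBM39. They were taken by symbol as members of these families; the rule uses no measured value, but the families were picked with earlier results of these data known. All 40 were among 58676 genes counted, and all 40 passed the filter on low counts, which left 13136 genes (at least 1 CPM, the read count scaled to the library's total, in at least 2 libraries). Cells received the AllStars non-targeting siRNA (siControl) or siRNA to IGF2BP1 (siIGF2BP1), IGF2BP2 (siIGF2BP2) or IGF2BP3 (siIGF2BP3), 3 related proteins that bind mRNA and that the study examined as readers of methylated bases. Actinomycin D, which stops transcription, was present in every group for its last 0 h (none), 3 h or 6 h before collection. The 24 libraries thus form 12 groups of 2, each from transiently transfected cells of 1 line, and the 3 time points of an siRNA came from plates reseeded after transfection. The siControl libraries are shared by all 3 knockdown comparisons.

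SR proteins bind exonic enhancers and help the spliceosome to define exons, while hnRNP proteins coat nascent RNA and often act as silencers, so that the balance of both families sets many splice choices. CLK kinases phosphorylate the serine and arginine rich domains of SR proteins and release them from nuclear speckles. Many of these genes are known to limit their own level by splicing in a poison exon or retaining an intron, which sends the RNA to nonsense-mediated decay or keeps it in the nucleus.

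The libraries held 31843504 to 74252494 reads on genes and 50889 to 119088 reads on ERCC RNAs, the synthetic standards added in proportion to total RNA. The targeted gene was at 17.7% of its siControl level for IGF2BP1, at 23% for IGF2BP2 and at 29% for IGF2BP3, over the 3 times. All 10 hepatocyte markers had a median of at least 1 CPM, with a summed level of 67400 to 100000 CPM, whereas the summed levels of 4 leukocyte, 3 endothelial and 4 fibroblast markers did not exceed 2.41, 2.7 and 0.4 CPM. ERCC reads were 0.131% and 0.15% of gene reads in the siControl libraries at 0 h, 0.167% and 0.168% at 3 h and 0.198% and 0.213% at 6 h. Every value of RNA left after actinomycin D rests on that ratio, and replicate 1 lay above replicate 2 at 0 h in siControl, from 101% and 99.1% for PTBP2 to 111% and 89% for CLK2.

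Before actinomycin D, the members covered a wide range of levels. Levels here are CPM scaled by TMM, which sets the typical gene equal across libraries, and levels of different genes are compared per kb of the annotated canonical transcript. HNRNPA1, which represses exon inclusion and shuttles between nucleus and cytoplasm, had the highest level per length at 395 ± 8.67 CPM per kb (SD, n = 2) in siControl. HNRNPA2B1 (320 ± 2.7), HNRNPK (267 ± 1.61), HNRNPM (241 ± 1.25) and HNRNPH1 (231 ± 0.882) followed. SRSF2 and SRSF9, the highest SR mRNAs, both had 101 CPM per kb. At the low end stood PTBP2, the neuronal form of the polypyrimidine tract binding protein, with 3.99 ± 0.311, CLK4 with 6.57 ± 0.415 and SRSF8, a close relative of SRSF2, with 6.89 ± 0.0794 CPM per kb. Each length is that of 1 annotated transcript. HNRNPA1 has many processed copies in the genome, and reads shared with them make its level uncertain. Across all 24 libraries, no member fell below 179 reads (CLK3).

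After transcription stopped, 38 of the 40 members fell in siControl over 6 h. Among all genes tested 80.3% fell, so the count alone does not set the members apart. The slope, fitted on ERCC-scaled counts as a log2 change per 6 h, had a median of -0.85 over the members and of -0.88 over all genes tested. The median half-lifetime was 7.97 h for the members and 7.11 h for the 12179 genes with a mean of at least 1 CPM. Taking 1 library per time in each of the 8 possible ways moved the members' median between 6.46 and 10.2 h. Within the families, however, the values ran from under 2 h to no detectable loss.

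**Figure D1:**
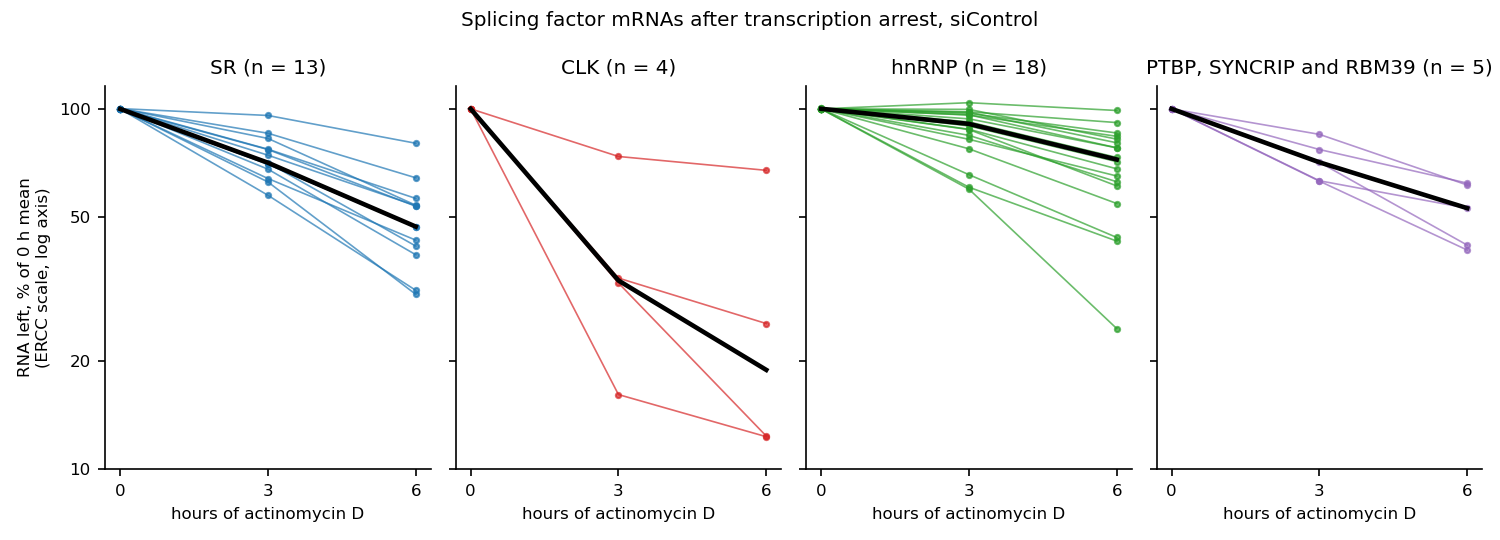
RNA left in siControl (y axis, % of the gene's own 0 h mean on the ERCC scale, log axis) against hours of actinomycin D, with 1 panel per family. Coloured lines are genes (mean of 2 libraries) and the black line is the family median, which at 6 h was 47.1% for SR, 18.9% for CLK, 72.3% for hnRNP and 53% for the 5 others.

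CLK1, CLK3 and CLK4 were the fastest-lost members. CLK1 (chr2:200853009-200864691, minus strand, GRCh38) stood at 107% and 93% of its mean in the 0 h libraries, at 15.6% and 16.6% at 3 h and at 12.7% and 11.9% at 6 h. CLK3 (chr15:74598500-74645414, plus strand) stood at 107% and 92.8% at 0 h, at 34.7% and 31% at 3 h and at 13.9% and 10.8% at 6 h. CLK4 (chr5:178602664-178630615, minus strand) stood at 111% and 89.2% at 0 h, at 36.6% and 31.2% at 3 h and at 27.6% and 23.1% at 6 h. For these 3 kinases all libraries at 3 h and 6 h lay far below both libraries at 0 h. The slopes were -3.05 ± 0.55 for CLK1 (SE, edgeR adjusted p = 2.91e-05), -3.02 ± 0.17 for CLK3 (edgeR adjusted p = 6.42e-13) and -1.99 ± 0.34 for CLK4 (edgeR adjusted p = 1.42e-05). The half-lifetimes were 1.45 h for CLK1, with 1.37 to 1.53 h over the library combinations, 1.93 h for CLK3 (1.74 to 2.15 h) and 2.35 h for CLK4 (2.03 to 2.82 h). The range of CLK1 did not overlap that of CLK3, while those of CLK3 and CLK4 overlapped. From 0 to 6 h alone CLK1 and CLK3 each had a log2 change of -3.02, so the gap between their ranges rests on the 3 h libraries. CLK1 was shorter-lived than all but 4.28% of the genes. CLK2 (chr1:155262868-155278491, minus strand), the remaining kinase of the family, was lost more slowly, and its range did not overlap theirs. It stood at 111% and 89% at 0 h, at 71% and 76.5% at 3 h and at 71.5% and 63.5% at 6 h, a slope of -0.57 ± 0.14 (edgeR adjusted p = 0.000639) and a half-lifetime of 8.3 h (5.73 to 15.9 h). Relative to the typical gene, under TMM scaling, the CLK2 slope was positive at 0.31, whereas CLK1, CLK3 and CLK4 still fell.

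All 13 SR mRNAs fell, with a median half-lifetime of 5.68 h. SRSF5 and SRSF4, which both carry a pair of RNA recognition motifs, were lost fastest, with 3.67 h (3.25 to 4.24 h) and 3.92 h (3.52 to 4.45 h). SRSF5 stood at 57.7% and 57.4% at 3 h and at 33.6% and 29.1% at 6 h. SRSF3, the smallest SR protein, had 4.81 h, TRA2B, an activator of SMN2 exon inclusion, 4.88 h, and SRSF6 5.31 h. SRSF7 and SRSF8 both had 5.68 h, TRA2A 6.87 h, SRSF1 7.29 h, SRSF10, which represses splicing when dephosphorylated, 7.64 h, and SRSF2 8.36 h. SRSF11 (11 h) and SRSF9 (27.3 h, with 14.6 to 361 h over the combinations) ended the order. Neighbours between SRSF3 and SRSF2 overlapped in their ranges, so these ranges do not resolve their order. A difference between these genes within the same libraries was not tested.

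hnRNP mRNAs spread most widely, with a median of 16.2 h (10.7 to 28.8 h over the combinations). HNRNPF (chr10:43385617-43409186, minus strand), which binds G tracts, was lost fastest among them. It stood at 106% and 93.9% at 0 h, at 59.7% and 60% at 3 h and at 25.4% and 23.7% at 6 h, a slope of -2.03 ± 0.14 (edgeR adjusted p = 1.26e-11) and a half-lifetime of 3.42 h. HNRNPDL, a relative of the AU-rich element binding protein HNRNPD, had 4.5 h, HNRNPLL, which directs CD45 splicing in lymphocytes, 5 h, and HNRNPA0 7.45 h. HNRNPH1 (25.5 h) and HNRNPH2 (11 h), close relatives of HNRNPF, were lost more slowly, and their ranges did not overlap that of HNRNPF.

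The slowest members were abundant hnRNP mRNAs whose loss was at or near the resolution of the ERCC scale. HNRNPA1 (chr12:54280193-54287088, plus strand) stood at 108% and 92% at 0 h, at 105% and 103% at 3 h and at 103% and 94.9% at 6 h, so that the libraries of the 3 times overlapped and no half-lifetime could be given. Its slope was -0.02 ± 0.08 (edgeR adjusted p = 0.849). HNRNPA2B1, its partner in core hnRNP particles, stood at 107% and 93% at 0 h, at 97.9% and 98.3% at 3 h and at 94.1% and 89.1% at 6 h, with a slope of -0.13 ± 0.08 (edgeR adjusted p = 0.163). HNRNPM stood at 106% and 94% at 0 h, at 99.8% and 99.5% at 3 h and at 85% and 79.8% at 6 h, and HNRNPA3 at 108% and 92.4%, at 96.9% and 97.4%, and at 87.5% and 83.9%. Both fell by the test, with slopes of -0.28 ± 0.08 for HNRNPM (edgeR adjusted p = 0.00284) and of -0.22 ± 0.08 for HNRNPA3 (edgeR adjusted p = 0.0124). In both genes the 6 h libraries lay below those of the other times. Over the 8 library combinations, however, HNRNPM showed a loss in only 6, HNRNPA3 in 5 and HNRNPA2B1 in 4. HNRNPC and HNRNPK, with nominal half-lifetimes of 32.7 and 31.9 h, showed no loss in 1 of their 8 library combinations. Under TMM scaling these stable mRNAs turned positive, with slopes of 0.85 for HNRNPA1, 0.74 for HNRNPA2B1, 0.59 for HNRNPM and 0.65 for HNRNPA3, and of all 40 members 18 rose and 15 fell relative to the typical gene.

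**Figure D2:**
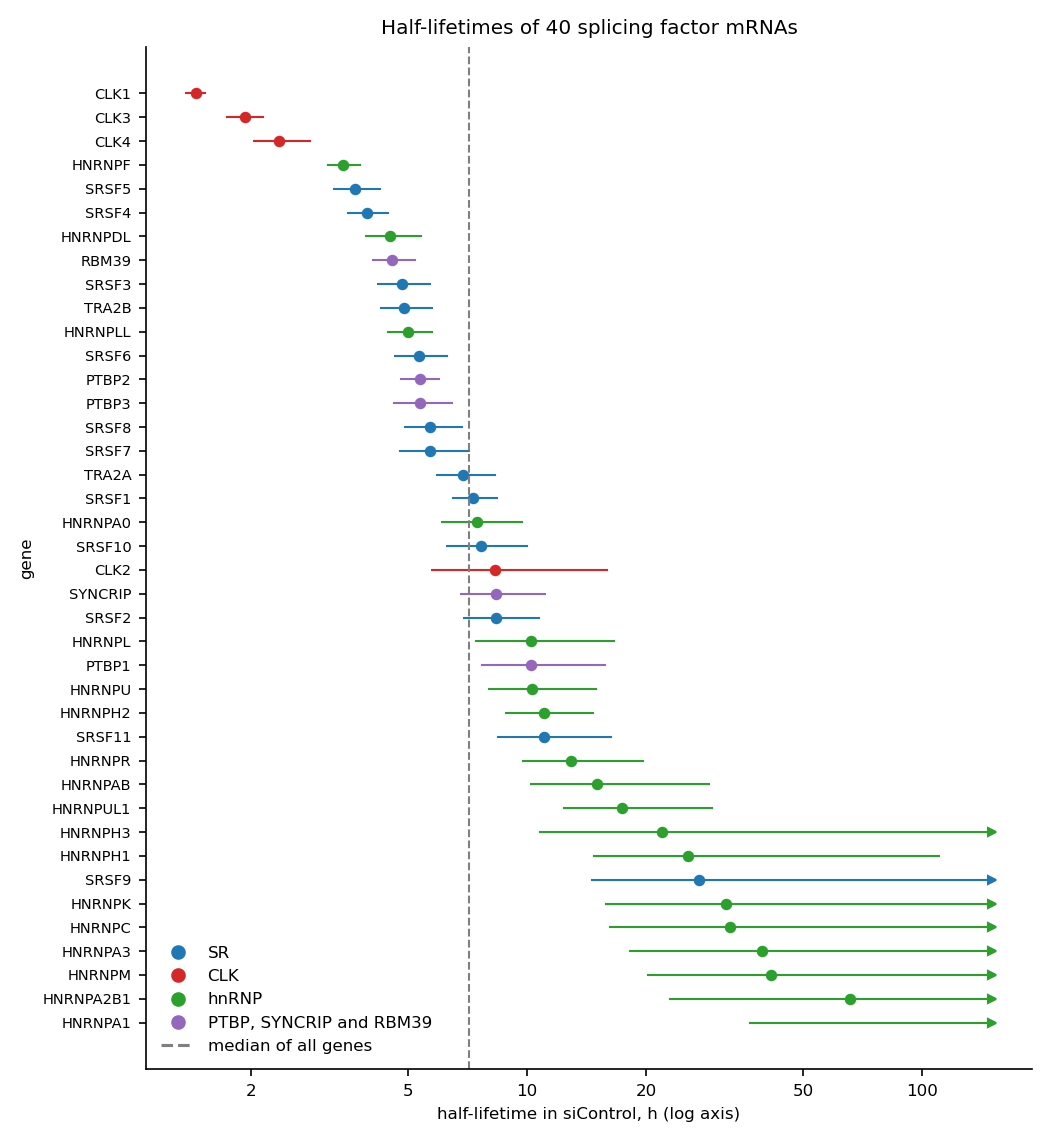
Half-lifetimes in siControl (x axis, hours, log axis) of the 40 members in order. Points are values from group means, bars span the 8 combinations of 1 library per time and an arrow marks a range that runs past 150 h or to no loss. HNRNPA1 has no point. CLK1, CLK3 and CLK4 end the short side and HNRNPA1, HNRNPA2B1, HNRNPM and HNRNPA3 the long side, while the dashed line marks the 7.11 h of all genes.

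By family, 9 of the 10 longest-lived members were hnRNP mRNAs and the remaining one was SRSF9. Of the 20 shortest-lived, 10 were SR, 4 hnRNP and 3 CLK mRNAs. Half-lifetimes below the 7.11 h of all genes were found for 8 of 13 SR, 3 of 4 CLK and 3 of 18 hnRNP mRNAs. PTBP1 (10.2 h), the main repressor of the PTB family, was lost more slowly than PTBP2 and PTBP3 (both 5.35 h), SYNCRIP had 8.36 h and RBM39, a U2AF65-like factor, 4.55 h. Across the 40 genes the level per kb at 0 h and the slope had a Spearman rho of 0.54, a description over genes measured in the same libraries.

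On the ERCC scale, loss was called uneven over time for 3 members. From 0 to 3 h 28 members fell, where 61.3% of all genes did, and from 3 to 6 h 36 members fell, where 64.9% of all genes did. In the first interval CLK1 (-2.63), CLK3 (-1.61) and CLK4 (-1.56) had the most negative log2 changes, and HNRNPA1 (0.05), HNRNPM (0.00) and HNRNPA2B1 (-0.03) the highest. A slower second interval was called for 2 members, CLK1 and CLK4, and for 10.9% of all genes. For CLK1 the late change minus the early change was 2.25 ± 0.20 (edgeR adjusted p = 1.73e-26), and the TMM-scaled level was 10.5 and 11.2 CPM at 3 h and 11 and 11.2 CPM at 6 h. For CLK4 the difference was 1.14 ± 0.24 (edgeR adjusted p = 4.84e-05). For CLK3 the difference was 0.20 ± 0.21 and was not called. A faster second interval was called for 1 member, HNRNPF, at -0.55 ± 0.14 (edgeR adjusted p = 0.00154), and for 1.64% of all genes. In this model edgeR shared 1 spread across all genes, and since the error of a library's ERCC total moves all its genes together, these p-values are too small. The call for CLK4 missed the threshold in 1 of 9 alternatives (adjusted p up to 0.0548), as did that for HNRNPF (up to 0.0525), and that of CLK1 held in all 9. Without siControl 0 h replicate 1 the count of unequal members was 5, and without siControl 3 h replicate 2 it was 1. Under TMM scaling, relative to the typical gene, 3 members were called slower and 20 faster in the second interval.

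**Figure D3:**
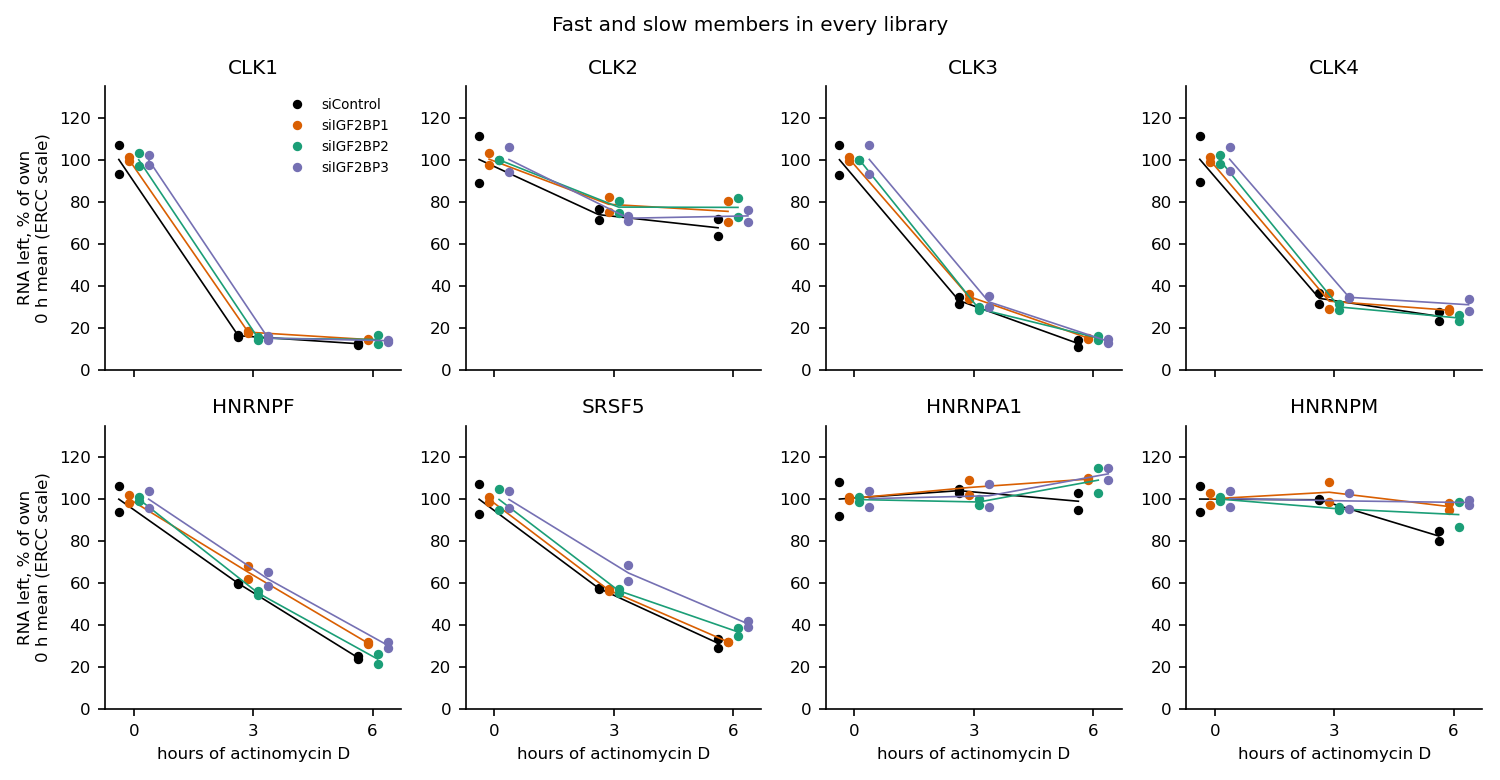
RNA left (y axis, % of the 0 h mean of the same siRNA, ERCC scale) in every library against hours of actinomycin D (points spread sideways by siRNA), for 4 CLK kinases, HNRNPF, SRSF5, HNRNPA1 and HNRNPM. Lines join means of 2. In siControl CLK1 and CLK4 fall less from 3 to 6 h than from 0 to 3 h, HNRNPF drops from 59.9% to 24.5% over the second interval, and HNRNPA1 lies between 92% and 108%.

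The annotation of these genes (GENCODE release 44, GRCh38) is rich in non-coding forms. A transcript classed as a target of nonsense-mediated decay was listed for 33 of 40 members (82.5%), where 49% of the 11385 protein-coding genes tested had one, and all 13 SR genes had at least one. A retained-intron transcript was listed for 31 members (77.5%, against 62.5%). The median number of transcripts was 14 per member and 8 per protein-coding gene. CLK1, CLK3 and CLK4 had 8, 8 and 7 retained-intron transcripts and CLK2 had none. Other members went the other way, with 19 in HNRNPH1 and 7 in HNRNPA2B1, which were lost slowly, and 0 in the fast-lost HNRNPF. A relation of these counts to half-lifetime was not tested. The counts pool all transcripts of a gene, so the part of any single form in the losses above was not tested. Members with such a decay-prone form had a median of 7.64 h, and the 7 without one 8.3 h.

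AU-rich elements in the 3′ UTR are a known mark of short-lived mRNAs, and their core was looked for as the letters TATTTAT, which contain the shorter ATTTA, on the sense strand of the canonical 3′ UTR. At least 1 copy was present in 16 of 40 members (40%) and in 35.2% of protein-coding genes tested. The windows below show it in the short-lived CLK3 and in the long-lived HNRNPC, whose 2076-base 3′ UTR held 3 copies, and HNRNPA1, with the match in capitals (GRCh38, 29 bases each, read 5′ to 3′ in the direction of the gene).
CLK3 at chr15:74630060-74630088, plus strand: ttgacccaagcTATTTATatgttataaag
HNRNPC copy 1 at chr14:21210104-21210132, minus strand: cttttaattacTATTTATagccccagtta
HNRNPC copy 2 at chr14:21209649-21209677, minus strand: aactcatgtctTATTTATgaggattttat
HNRNPC copy 3 at chr14:21209206-21209234, minus strand: aaatggcatagTATTTATatgtaacctat
HNRNPA1 at chr12:54286488-54286516, plus strand: ttttgccctttTATTTATcttcctttgac
CLK1, CLK4 and HNRNPF, which were lost fast, held no copy in 3′ UTRs of 297, 953 and 1019 bases. The median half-lifetime was 7.08 h for members with a copy and 8.36 h for the 24 without. Length of the 3′ UTR and slope had a Spearman rho of 0.03 across the members.

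Other parts of the splicing and decay machinery gave a frame for these losses. Of 42 core spliceosome genes 38 fell over 6 h in siControl, with a median slope of -0.59. CDC5L, of the PRPF19-associated complex (-2.32 ± 0.13, edgeR adjusted p = 2.54e-13), and PRPF4, a U4/U6 snRNP protein (-1.75 ± 0.10, edgeR adjusted p = 6.06e-13), had the largest falls there. All 41 other splicing regulators tested fell, with a median of -1.05. Their list also holds hnRNP genes that are not among the members, such as HNRNPD and HNRNPUL2. MATR3, a nuclear matrix RNA-binding protein, had a slope of -2.67 ± 0.42 (edgeR adjusted p = 5.91e-06) and RBM5 of -2.14 ± 0.12 (edgeR adjusted p = 5.61e-13). All 14 nonsense-mediated decay factors fell, with a median of -0.76, and SMG8, a regulator of the SMG1 kinase, had the largest change at -5.13 ± 0.42 (edgeR adjusted p = 2.21e-10). As a check of the arrest, 8 short-lived mRNAs such as MYC and JUN all fell, with slopes from -6.96 to -3.65. The slopes of 8 long-lived mRNAs such as ALB and ACTB ran from -0.12 to 0.12 with none called. Both lists were chosen with earlier results of these data known, so they are not an independent check.

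Knockdown of IGF2BP1, IGF2BP2 or IGF2BP3 changed a few members before actinomycin D, and none by more than 0.21 on the log2 scale among those called. With siIGF2BP1, 4 members were higher (9.43% of all genes were) and 4 were lower (6.5% of all genes). SRSF4 (0.13 ± 0.04), HNRNPL (0.13 ± 0.04), HNRNPC (0.12 ± 0.03) and HNRNPK (0.09 ± 0.03) rose, and SRSF8 (-0.21 ± 0.07), SRSF10 (-0.17 ± 0.04), HNRNPDL (-0.16 ± 0.04) and HNRNPAB (-0.14 ± 0.03) fell, with edgeR adjusted p from 0.00106 to 0.0309. With siIGF2BP2, 4 members were higher (6.65% of all genes) and 2 lower (5.47% of all genes). HNRNPLL (0.19 ± 0.05), HNRNPA0 (0.15 ± 0.04), HNRNPAB (0.12 ± 0.03) and HNRNPC (0.11 ± 0.03) rose, and HNRNPH2 (-0.19 ± 0.06) and SRSF10 (-0.17 ± 0.04) fell, with edgeR adjusted p from 0.00304 to 0.05, the last just under the threshold. With siIGF2BP3, 5 members were higher (4.93% of all genes) and none was lower (4.47% of all genes). They were HNRNPLL (0.16 ± 0.05), TRA2B (0.14 ± 0.03), HNRNPR (0.13 ± 0.04), SYNCRIP (0.11 ± 0.04) and HNRNPC (0.10 ± 0.03), with edgeR adjusted p from 0.00601 to 0.0386. On the ERCC scale no member was called for siIGF2BP1 or siIGF2BP3 and 1 for siIGF2BP2. Leaving out siControl replicate 1 or siIGF2BP3 replicate 2 left 0 members called for siIGF2BP3, without siControl replicate 2 there was 1, and without siIGF2BP3 replicate 1 there were 3. With 1 library fewer, siIGF2BP1 calls ran from 3 to 7 and siIGF2BP2 calls from 2 to 3. The lowest counts came without siControl replicate 1, siControl replicate 2 or siIGF2BP1 replicate 2 for siIGF2BP1, and without siControl replicate 1 or siIGF2BP2 replicate 1 for siIGF2BP2.

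**Figure D4:**
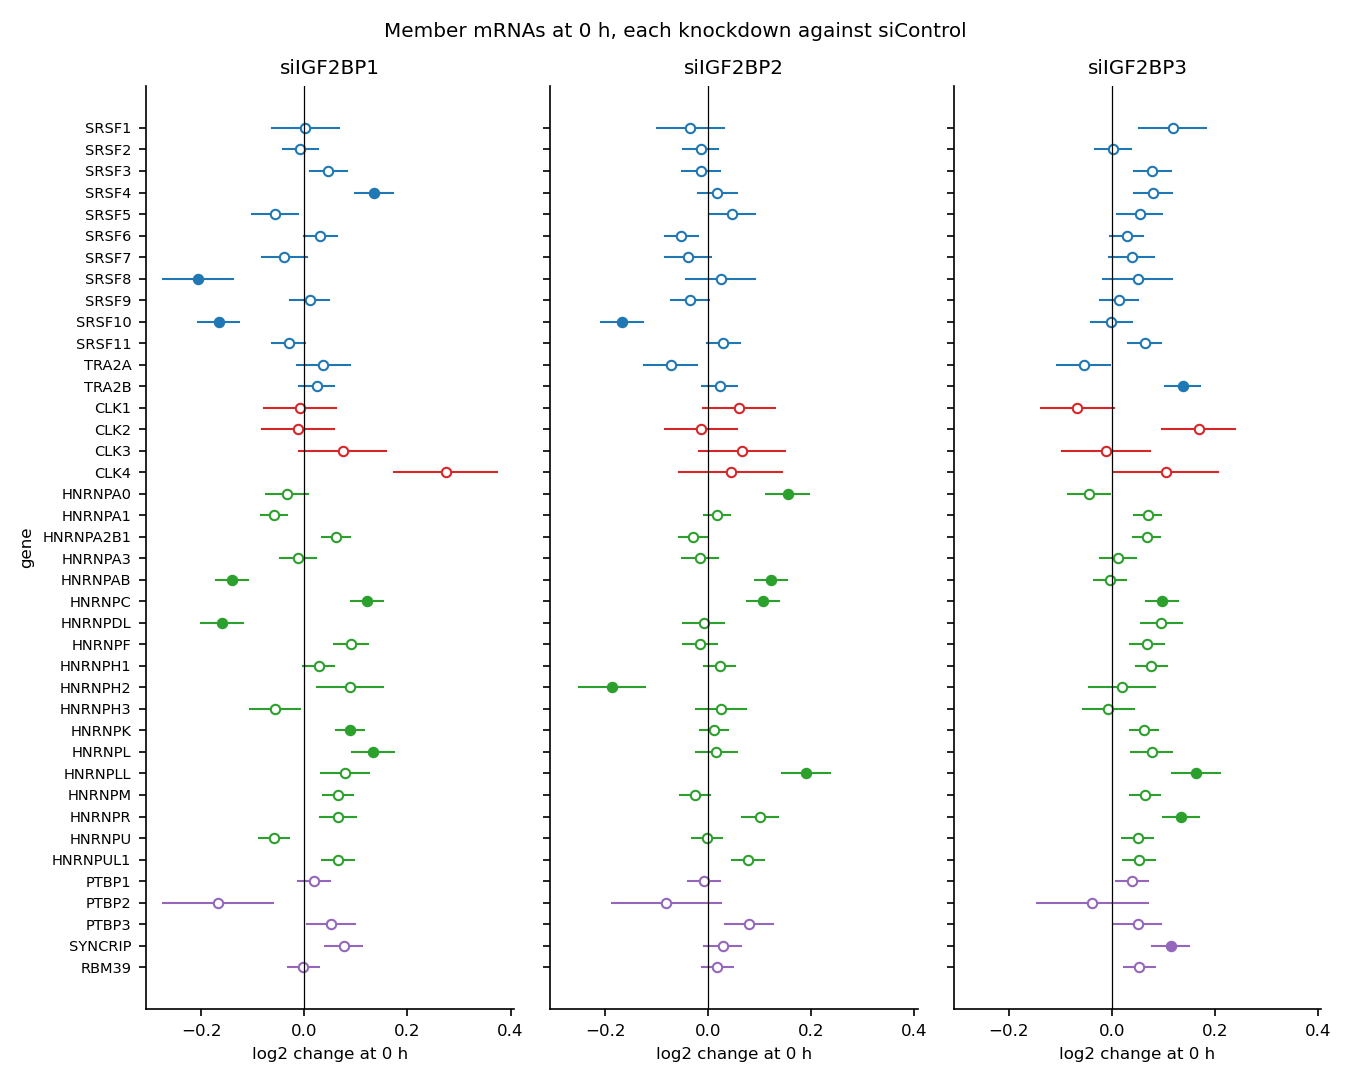
Log2 change at 0 h of the 40 members in each knockdown against siControl (x axis, TMM scale), with bars of 1 SE and filled points for members called at an adjusted p under 0.05. The called changes lie between -0.21 and 0.19, and HNRNPC is called higher in all 3 panels, which share the siControl libraries.

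No CLK mRNA was called at 0 h. CLK1 had 49.6 and 49 CPM in siControl, 48.9 and 49.2 with siIGF2BP1, 50 and 52.7 with siIGF2BP2 and 46.9 and 47.2 with siIGF2BP3. CLK2 had 24 and 21.9 CPM in siControl, 23.1 and 22.3 with siIGF2BP1, 22.8 and 22.6 with siIGF2BP2 and 24.8 and 26.8 with siIGF2BP3. CLK3 had 31.2 and 30.7 CPM in siControl, 32 and 33.1 with siIGF2BP1, 32.5 and 32.2 with siIGF2BP2 and 33.4 and 27.8 with siIGF2BP3. None of these differences passed the test. CLK4 had 17.2 and 15.7 CPM in siControl, 19.4 and 20.4 with siIGF2BP1, 17.4 and 16.4 with siIGF2BP2 and 17.1 and 18.3 with siIGF2BP3, and its siIGF2BP1 libraries lay above both siControl libraries without passing the test.

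Of the other lists at 0 h, the core spliceosome had 9 genes higher and 3 lower of 42 with siIGF2BP1, 1 and 1 with siIGF2BP2 and 3 and 0 with siIGF2BP3. The other splicing regulators had 4 higher and 0 lower of 41 with siIGF2BP1, 3 and 2 with siIGF2BP2 and 6 and 0 with siIGF2BP3. MBNL1, the muscleblind splicing regulator, was higher in each, by 0.38 ± 0.06 with siIGF2BP1 (edgeR adjusted p = 9.06e-06), 0.37 ± 0.06 with siIGF2BP2 (edgeR adjusted p = 1.94e-05) and 0.51 ± 0.06 with siIGF2BP3 (edgeR adjusted p = 1.22e-07). PRPF31, a U4/U6 snRNP protein, fell by 0.30 with siIGF2BP2 (edgeR adjusted p = 2.8e-06). Of 14 nonsense-mediated decay factors 1, 0 and 2 were higher with siIGF2BP1, siIGF2BP2 and siIGF2BP3, and none was lower.

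Several member changes were present at all 3 times on the TMM scale. Called in 1 direction at 0, 3 and 6 h were 4 members with siIGF2BP1 (9.84% of all genes), 2 with siIGF2BP2 (7.19%) and 2 with siIGF2BP3 (5.65%). These counts do not set the members apart, and the genes described next were picked by these calls. On the ERCC scale no member was called at 0 h with siIGF2BP1 or siIGF2BP3, and none was called lower with siIGF2BP2. The changes described next were thus not called at all 3 times on that scale. HNRNPAB, a CArG-box binding hnRNP, had 252 and 249 CPM in siControl at 0 h against 228 and 227 with siIGF2BP1, 305 and 311 against 263 and 259 at 3 h, and 325 and 329 against 280 and 275 at 6 h. Its libraries did not overlap at any time, and the log2 changes were -0.14, -0.24 and -0.24, each ± 0.03. HNRNPDL had 384 and 372 CPM in siControl at 0 h against 345 and 332 with siIGF2BP1, and 291 and 304 against 243 and 251 at 6 h (-0.27 ± 0.04, edgeR adjusted p = 3.75e-06). SRSF8 had 29.9 and 29.4 CPM against 26.8 and 24.4 at 0 h, and 25 and 26.1 against 19.7 and 19.2 at 6 h (-0.40 ± 0.07, edgeR adjusted p = 8.24e-05). HNRNPC, which binds uridine tracts, was higher instead, with 500 and 488 CPM against 538 and 536 at 0 h and 745 and 770 against 850 and 835 at 6 h (0.15 ± 0.03, edgeR adjusted p = 0.000219).

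With siIGF2BP2 the changes called at all 3 times on the TMM scale were falls. HNRNPH2, an X-linked relative of HNRNPH1, had 37 and 37.9 CPM in siControl against 33.6 and 32.3 at 0 h, 44.5 and 45.4 against 34.9 and 34.5 at 3 h (-0.37 ± 0.07, edgeR adjusted p = 3.83e-05), and 40.6 and 43.1 against 32.8 and 33.2 at 6 h. A read-through transcript annotated from RPL36A overlaps HNRNPH2 on the same strand, and how such reads were assigned is not known here. SRSF10 had 194 and 190 CPM against 172 and 170 at 0 h, and 191 and 206 against 174 and 181 at 6 h (-0.16 ± 0.04, edgeR adjusted p = 0.00428). With siIGF2BP3 both were rises. HNRNPLL had 59 and 60.7 CPM against 68 and 66 at 0 h, 54.1 and 53.5 against 65.1 and 65.5 at 3 h (0.28 ± 0.05, edgeR adjusted p = 6.68e-05), and 48.1 and 47.9 against 56.5 and 55.4 at 6 h. HNRNPR had 329 and 326 CPM against 353 and 366 at 0 h, and 391 and 426 against 442 and 466 at 6 h (0.15 ± 0.04, edgeR adjusted p = 0.00163).

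At 3 h, in either direction, 9 members were called with siIGF2BP1 (20.9% of all genes), 7 with siIGF2BP2 (17%) and 6 with siIGF2BP3 (16%). Without siControl 3 h replicate 1 or siControl 3 h replicate 2 the counts were 4 with siIGF2BP2 and 3 with siIGF2BP3, and without siIGF2BP2 3 h replicate 1 there were 4 with siIGF2BP2. At 6 h the counts were 16 (24.3%), 9 (18.7%) and 13 (18.5%), the last falling to 8 without siControl 6 h replicate 1 or siIGF2BP3 6 h replicate 2. In the same order of siRNAs, 2, 0 and 6 members were higher and 7, 7 and 0 lower at 3 h. Of all genes 1397, 986 and 972 were higher and 1345, 1244 and 1132 lower. At 6 h 7, 1 and 13 members were higher and 9, 8 and 0 lower. Of all genes 1778, 1084 and 1240 were then higher and 1420, 1369 and 1188 lower. With library-size scaling the siIGF2BP3 counts of members were 10 at 3 h and 21 at 6 h, all higher (1327 and 1590 of all genes were higher). HNRNPF, the fast hnRNP mRNA, was called in each knockdown at 6 h and not in 1 direction. It had 151 and 154 CPM in siControl, 183 and 182 with siIGF2BP1 (0.26 ± 0.04, edgeR adjusted p = 3.74e-07), 125 and 131 with siIGF2BP2 (-0.26 ± 0.04, edgeR adjusted p = 6.87e-07) and 172 and 167 with siIGF2BP3 (0.15 ± 0.04, edgeR adjusted p = 0.00171). The libraries of the 4 groups did not overlap, and the difference between knockdowns at 6 h was not tested. TRA2B was 0.27 ± 0.04 higher with siIGF2BP3 at 6 h (edgeR adjusted p = 3.39e-07), and SRSF5 was lower with siIGF2BP1 (-0.22 ± 0.05) and higher with siIGF2BP3 (0.20 ± 0.05). On the ERCC scale the 6 h median of all genes lay 0.17, 0.27 and 0.31 above siControl in the 3 knockdowns, and 18, 28 and 36 members were then called, all higher.

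Direct comparison of the knockdowns at 0 h, which needs no siControl library, called 12 members between siIGF2BP1 and siIGF2BP2 (18.7% of all genes), 8 between siIGF2BP1 and siIGF2BP3 (14.3%) and 7 between siIGF2BP2 and siIGF2BP3 (9.19%). HNRNPAB was lower with siIGF2BP1 than with siIGF2BP2 by 0.26 (edgeR adjusted p = 3.06e-08), and HNRNPDL was lower with siIGF2BP1 than with siIGF2BP3 by 0.26 (edgeR adjusted p = 1.03e-05). All 8 members called between siIGF2BP1 and siIGF2BP3 were lower with siIGF2BP1. These counts were smaller with any 1 library left out, at 4 to 7, 3 to 6 and 1 to 3.

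Decay itself did not differ detectably for any member. The question was whether loss of an IGF2BP protein changes how long an mRNA lasts, and the difference of slopes against siControl was called for 0 members with siIGF2BP1 (0.0152% of all genes, 2 genes), 0 with siIGF2BP2 (0% of all genes) and 0 with siIGF2BP3 (0.0228%, 3 genes). Before adjustment, 7, 2 and 17 members and 1436, 896 and 2113 of all genes had p under 0.05, and DESeq2 called 0 members in each. The smallest edgeR adjusted p of a member was 0.423, 0.643 and 0.277. The slopes were nonetheless mostly less steep, in 39, 36 and 40 of 40 members, with medians of 0.19, 0.14 and 0.24. The medians over all genes tested were 0.19, 0.17 and 0.22. The 8 long-lived check mRNAs, flat in siControl, had differences with medians of 0.16, 0.15 and 0.18, and 5, 5 and 6 of them were called as rising in the knockdowns. The part of the ERCC scale in the members' shift was not tested. Under TMM scaling the members' medians were 0.00, -0.06 and 0.02.

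**Figure D5:**
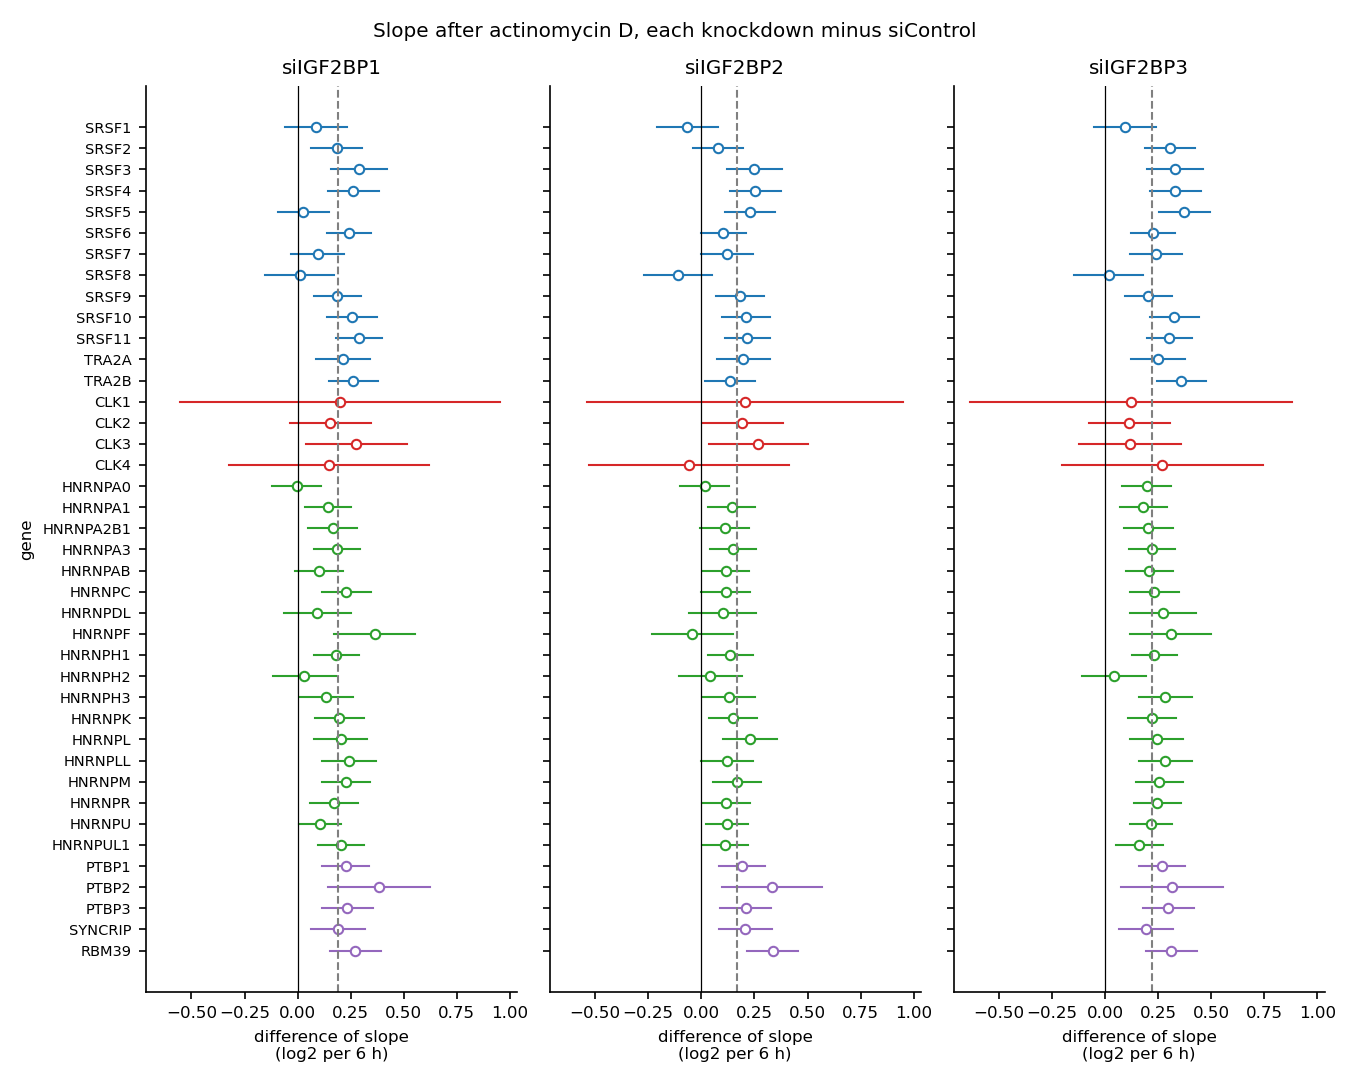
Difference of slope, knockdown minus siControl (x axis, log2 per 6 h, ERCC scale), for the 40 members with bars of 1 SE. The dashed line is the median of all genes tested (0.19, 0.17 and 0.22), and no point is filled since no member was called.

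The errors bound what could be seen. For CLK1 with siIGF2BP1 the difference in change from 0 to 6 h, which needs no straight line, was 0.21 (95% interval -0.09 to 0.51). That model shared 1 spread across all genes, so its errors are too small. SEs of the slope differences ran from 0.10 to 0.76. The 95% interval was widest for CLK1, whose uneven loss was fitted with a line, from -1.37 to 1.77 with siIGF2BP1. Without siControl 0 h replicate 2, 8 members passed for siIGF2BP3.

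Most members also fell in each knockdown. Falling over 6 h were 33 members with siIGF2BP1 (69.1% of all genes), 33 with siIGF2BP2 (71.3%) and 31 with siIGF2BP3 (67.2%). CLK1 had half-lifetimes of 1.54, 1.45 and 1.44 h in siIGF2BP1, siIGF2BP2 and siIGF2BP3 beside 1.45 h in siControl. CLK1 stood at 14.4% and 14.2% at 6 h with siIGF2BP1, at 12.1% and 16.5% with siIGF2BP2 and at 13.2% and 14.3% with siIGF2BP3. Only the siIGF2BP2 libraries overlapped those of siControl, and the others lay above them by less than 3 percentage points. CLK3 had 2.08, 1.9 and 1.95 h and CLK4 2.37, 2.18 and 2.51 h. HNRNPF had 4.14 h with siIGF2BP1 (3.83 to 4.48 h) beside 3.42 h in siControl (3.14 to 3.77 h), 3.17 h with siIGF2BP2 and 3.87 h with siIGF2BP3. Its slope difference with siIGF2BP1 was not called. HNRNPA1 stood at 110% and 109% at 6 h with siIGF2BP1, at 103% and 115% with siIGF2BP2 and at 115% and 109% with siIGF2BP3. The members' median half-lifetime was 10.1 h (8.61 to 12.1 h), 7.92 h (7.01 to 9.16 h) and 9.97 h (8.16 to 13.8 h) in the 3 knockdowns, ranges that overlap the 6.46 to 10.2 h of siControl, and that of all genes was 8.76, 7.46 and 9.07 h beside 7.11 h. Half-lifetimes were longer than in siControl for 35 of 37 members with siIGF2BP1 and 35 of 39 with siIGF2BP3 (81.6% and 84.7% of all genes). With siIGF2BP2 they were longer for 15 of 39 (62.8% of all genes). These counts need a half-lifetime under both siRNAs compared. HNRNPA2B1 and HNRNPM, at 65.8 and 41.5 h in siControl, had no half-lifetime with siIGF2BP1 and are left out there. With siIGF2BP2 the slope was nonetheless less steep in 36 of 40 members. Unlike the slope, the half-lifetime averages the decay constants to 3 h and to 6 h. The members' median RNA left with siIGF2BP2 was 74.9% at 3 h beside 77.2% in siControl, and 64.1% at 6 h beside 55.5%. The hnRNP median was 24.4, 15.2 and 24.4 h beside 16.2 h in siControl, and the SR median 6.17, 5.65 and 6.77 h beside 5.68 h. The median of PTBP1, PTBP2, PTBP3, SYNCRIP and RBM39 was 8.95, 5.98 and 8.9 h beside 5.35 h. Over the library combinations it ran from 6.85 to 14.8 h, 5.6 to 6.42 h and 7.68 to 10.5 h in the knockdowns. In siControl it ran from 4.78 to 6.44 h. The SR median ran from 5.73 to 7.9 h, 5.05 to 6.2 h and 5.38 to 8.67 h, and from 4.92 to 7.13 h in siControl. Under each siRNA the SR range overlaps that of PTBP1, PTBP2, PTBP3, SYNCRIP and RBM39, so these ranges do not resolve the order of the 2 medians. Compared with siControl, the range of PTBP1, PTBP2, PTBP3, SYNCRIP and RBM39 lay higher without overlap with siIGF2BP1 and siIGF2BP3. With siIGF2BP2 it overlapped that of siControl. The SR range overlapped that of siControl in each knockdown. Differences between these medians were not tested.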

How the data were processed

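Actinomycin D was used on HepG2 cells about 48 h after siRNA-transfected plates were reseeded. Per the labels and the study's methods, the authors added ERCC RNA per µg of total RNA, purified mRNA, made stranded libraries (SMARTer Stranded Total RNA-Seq Kit v2), trimmed reads with Trimmomatic 0.39, aligned them to hg38 with HISAT2 2.1.0 and counted reads per GENCODE release 29 gene with HTSeq. The strand and multi-mapping settings of the counting are not given in the sources used here, so members that overlap a neighbour (CLK3 with EDC3, HNRNPA2B1 with CBX3, HNRNPAB with PHYKPL, HNRNPU with COX20, SRSF2 with MFSD11, SRSF9 with NRAV, HNRNPH2 with RPL36A-HNRNPH2) or share reads with a pseudogene are uncertain. The deposited values are raw counts. HTSeq summary rows (13.6% to 17.1% of a library) and 45 rows of the Y copy of pseudoautosomal genes stayed out. METTL1 knockdown libraries were not analysed here.

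Symbols were matched through Ensembl identifiers for 58207 rows, 469 having no match. Counts were tested with edgeR 4.0.16 (quasi-likelihood, R 4.3.3) and Benjamini-Hochberg adjustment over 13136 genes, threshold 0.05. Levels used 12 group means under TMM scaling. Loss used library totals of ERCC reads as scale: a line per siRNA over 0, 3 and 6 h (slope, log2 per 6 h) and group means for 0 to 3 h and 3 to 6 h. The half-lifetime was the natural log of 2 divided by K, the mean of the decay constants from 0 to 3 h and 0 to 6 h, from group means. The study used the same decay equation and an average over the times, whose form it does not spell out, and a linear fit of the ERCC RNAs in place of their totals. No half-lifetime was given where K was not above 0, and such genes counted as longest in medians.

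The 40 members and all gene lists were chosen with earlier results of these data known. Every member was accounted for. Values in every library were given for members called at 0 h with a log2 change of at least 0.3 (none), members with a called slope difference (none), the 4 shortest and 4 longest half-lifetimes, the 3 largest and 3 smallest changes from 0 to 3 h and CLK1 to CLK4, and for lists at most 2 called changes per direction. SRSF5, HNRNPF at 6 h and the 8 changes called at all 3 times were added after their values were seen. The study calls the replicates independent, while the labels do not say whether they were separate transfections, and p-values measure the spread between these samples, which may be technical. Log2 CPM of replicates correlated at 0.9914 to 0.9966 across genes. Same-numbered libraries did not deviate together. Alternatives were ERCC, TMM or library-size scaling, DESeq2 1.42.0, other filters, the replicate block, the groups compared alone and leaving out each library. Sequences and transcript classes came from GENCODE release 44 on GRCh38. Python 3.11.15 computed levels and half-lifetimes.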

Additional observations from a re-analysis of the deposited data

Results flagged for a closer look

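The knockdowns differed from each other at 0 h for 27 member values, by edgeR's test of the difference itself on the TMM scale, each given as the first-named knockdown minus the other. Between siIGF2BP1 and siIGF2BP2, the log2 difference was positive for HNRNPH2 (0.27), SRSF4 (0.12), HNRNPL (0.12), HNRNPF (0.10), HNRNPA2B1 (0.09), HNRNPM (0.09) and HNRNPK (0.08). It was negative for HNRNPAB (-0.26), SRSF8 (-0.23), HNRNPA0 (-0.19), HNRNPDL (-0.15) and HNRNPA1 (-0.08).

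Between siIGF2BP1 and siIGF2BP3, all differences were negative, for SRSF8 (-0.26), HNRNPDL (-0.26), SRSF10 (-0.17), HNRNPAB (-0.14), HNRNPA1 (-0.13), TRA2B (-0.11), HNRNPU (-0.11) and SRSF11 (-0.09).

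Between siIGF2BP2 and siIGF2BP3, the difference was positive for HNRNPA0 (0.20) and HNRNPAB (0.12). It was negative for HNRNPH2 (-0.20), SRSF10 (-0.17), TRA2B (-0.12), HNRNPA2B1 (-0.10) and HNRNPM (-0.09). HNRNPAB is the member that differed in all 3 pairings, with 228 and 227 CPM with siIGF2BP1 beside 252 and 249 in siControl.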

How the results depend on the processing

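The 3 knockdowns of the targets kept their direction and call in every alternative run. With ERCC in place of TMM scaling, members called against siControl at 0 h went from 8, 6 and 5 (siIGF2BP1, siIGF2BP2, siIGF2BP3) to 0, 1 and 0, at 3 h from 9, 7 and 6 to 0, 1 and 10, and at 6 h from 9 and 13 to 28 (siIGF2BP2) and 36 (siIGF2BP3). Between knockdowns at 0 h they went from 12, 8 and 7 to 4, 5 and 0. DESeq2 called 14 and 11 members at 3 h with siIGF2BP1 and siIGF2BP2 and 11 between siIGF2BP2 and siIGF2BP3, and with no count filter 3 and 2 were called at 0 h with siIGF2BP2 and siIGF2BP3. With TMM or library-size scaling 15 or 24 members fell over 6 h in siControl instead of 38 (5085 or 6878 of all genes). Under TMM 23 members instead of 3 had unequal intervals (20 faster and 3 slower late, against 1 and 2). Library-size scaling called 10 and 21 members with siIGF2BP3 at 3 and 6 h instead of 6 and 13. Slopes were followed through every alternative only for CLK1 to CLK4, HNRNPF, SRSF4, SRSF5, HNRNPA1, HNRNPA2B1, HNRNPM and HNRNPA3. Among these, the slopes that reversed were those of CLK2 (0.31, TMM), HNRNPA1 (0.85 TMM, 0.53 library size, and -0.13 to 0.07 with 1 library left out, above 0 without siControl 0 h replicate 1 or, at 0.05, siControl 6 h replicate 2), HNRNPA2B1 (0.74, 0.42), HNRNPM (0.59, 0.27) and HNRNPA3 (0.65, 0.33). Further members had positive slopes under TMM, such as HNRNPC (0.62), HNRNPK (0.56) and SRSF9 (0.55). Of all members, 18 were called as rising and 15 as falling there. The median half-lifetime of 7.97 h gave 7.07 h from 0 and 6 h, 8.04 h from 0 and 3 h and no value under TMM, where the median member was not lost. Leaving out each library gave 6.51 to 9.77 h, the highest without siControl 0 h replicate 1. Such ranges for called members were 3 to 7, 2 to 3 and 0 to 3 at 0 h, 6 to 8, 4 to 6 and 3 to 7 at 3 h, 12 to 16, 7 to 11 and 8 to 15 at 6 h, 4 to 7, 3 to 6 and 1 to 3 between knockdowns, 0 to 0, 0 to 0 and 0 to 8 for slope differences, 35 to 39 for falls, 23 to 31 and 31 to 37 for the intervals and 1 to 5 for unequal intervals, the last lowest without siControl 3 h replicate 2. The replicate block raised unequal intervals to 5 members and moved no other count by over 1.5 times. Deviations of same-numbered libraries correlated at -0.02 to 0.09, so the numbers were not treated as pairs. The cause was not tested for any of these. The lowest count of a member in any library was 179, each group had 2 libraries, and all values of loss share the ERCC totals.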
